A study of Mus musculus with 15 samples.

Results

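Intraepithelial lymphocytes are T cells that live between the epithelial cells of the gut lining, so an isolate of jejunal epithelium carries their RNA along with that of enterocytes. The 10 genes described here are expressed by these cells and were taken from a fixed list of names: Ptprc, Cd3e, Cd3g, Cd8a, Itgae, Cd69, Gzma, Gzmb, Cd7 and Trdc. They are not confined to intraepithelial cells: Ptprc, for example, is found on all white blood cells. That list was chosen with earlier results of these data known. Its genes also varied together, so counts out of 10 are not counts of separate observations. All 10 were found among 52844 annotated genes, and all 10 passed the filter on low counts that left 14968 genes to test. The libraries were made from polyadenylated RNA of EDTA-released jejunal epithelium from 15 CC027/GeniUnc mice, an inbred Collaborative Cross strain used to study peanut allergy, and were read as pairs of 151 bp. There were 5 groups of 3 mice. Sensitized mice had received peanut extract by gavage, 2 mg weekly for 3 weeks and 5 mg in week 4, and were sampled without challenge (0 min) or 30 min, 60 min or 120 min after a gavage of 12 mg of peanut. PBS mice had received PBS in place of the extract and were not challenged. Replicate numbers only name the mice of a group and pair nothing. Since every challenged mouse had been given peanut, the effect of the gavage itself or of the time of sampling cannot be told apart from that of peanut.

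Most intraepithelial lymphocytes of the small intestine carry CD8α, are held in place by the integrin that CD103 forms with β7 and binds E-cadherin on epithelial cells, and store granzymes for rapid killing of damaged cells. Many of them in the mouse carry a γδ T cell receptor in place of the αβ receptor. CD69 is both an early activation antigen of lymphocytes and a marker of T cells that stay in tissue, where it opposes exit by binding the receptor S1P1. In RNA from bulk isolates, fewer cells of a type and less RNA per cell cannot be told apart, and this holds for every value below.

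Total estimated counts were 15661513 to 22691349 per library, and mitochondrial transcripts took 13.8% to 33.2% of them, highest in replicate 3 of the 60 min group. Levels are given as CPM, a gene's counts divided by the TMM-scaled library total and expressed per 1000000 counts, for comparisons between libraries. TPM, which also divides by transcript length, is used where genes are compared with each other. Epithelial markers were high: Epcam, an adhesion molecule of epithelial cells, was at 754 to 1416 CPM in all 15 libraries. RNA of other cells was present too. Plasma cell genes summed to 139 to 2913 CPM per library and B cell genes to 2.71 to 75.2 CPM. The 7 granulocyte markers summed to 0.353 to 2.13 CPM. One of them, S100a8, was at 0 in every library, while others were detected at a low level, such as Csf3r at a mean of 0.318 CPM and Retnlg at 0.288 CPM.

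Per length, the most abundant of the 10 genes was Cd7, with a median of 17.7 TPM over the 15 libraries, followed by Gzma at 13.9 TPM. Ptprc had a median of 8.72 TPM, Cd3g 6.38 TPM, Gzmb 5.70 TPM, Cd8a 5.01 TPM and Cd3e 4.67 TPM. Itgae at 2.73 TPM, Cd69 at 2.67 TPM and Trdc at 0.781 TPM were the lowest. The lymphocyte genes were thus read from few counts: the lowest library of each gene held between 20 counts, for Cd69, and 180 counts, for Ptprc. The value of Cd3e per length is uncertain. A transcript of 517 bases with a retained intron, Cd3e-203, took 41.8% of the gene's counts in replicate 3 of the 120 min group, against at most 5.43% in any other library. Genes on the other strand overlap Cd3e, Cd7, Itgae and the Trdc locus, and the sources used here do not say whether strand was used in quantification.

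**Figure D1:**
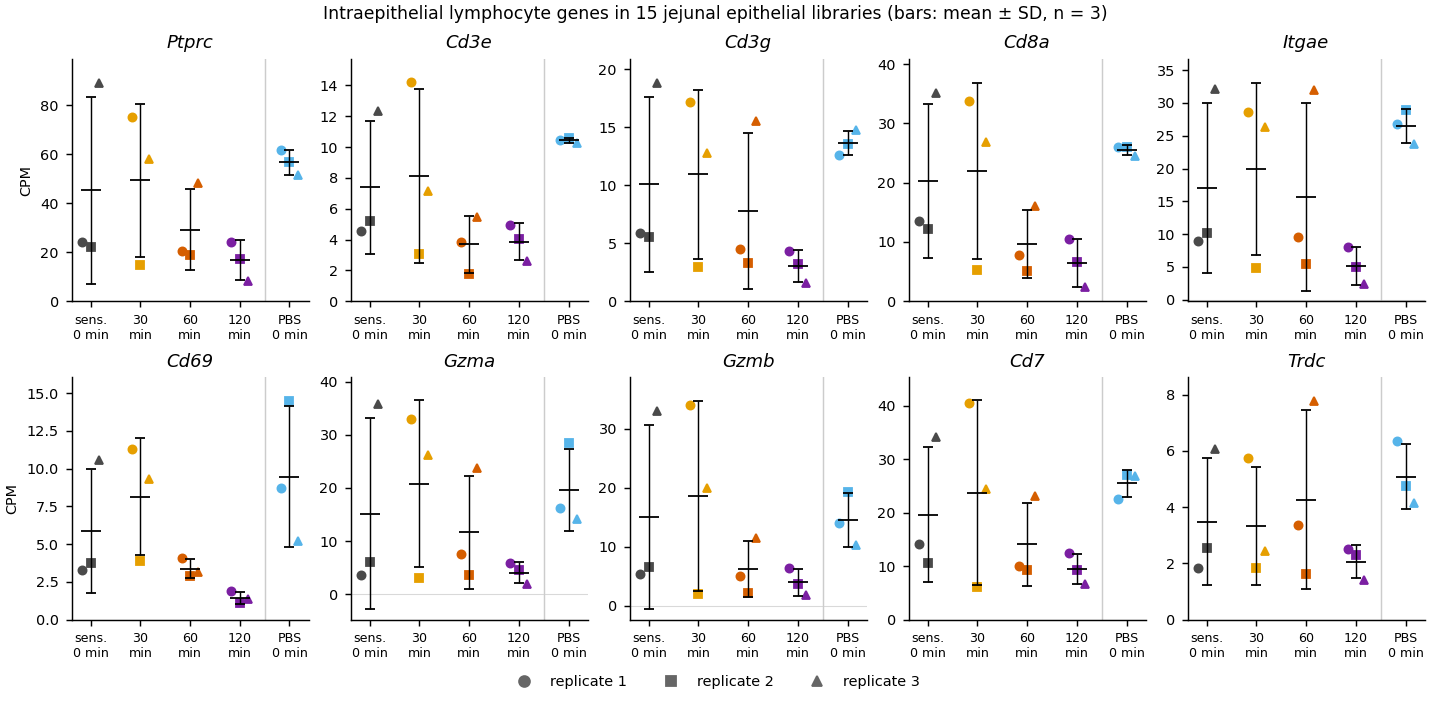
CPM of the 10 intraepithelial lymphocyte genes in 15 libraries, in sensitized mice at 0, 30, 60 and 120 min and in PBS mice at the right. Points are single mice, bars the mean ± SD of 3. The 3 mice of the 120 min group lie low on this linear scale, but for some genes they differ widely for their level, as for Cd8a at 10.5, 6.56 and 2.43 CPM. For Ptprc, replicate 1 of that group, at 24.3 CPM, lies above replicates 1 and 2 of the sensitized group, at 24.1 and 22.3 CPM. In the sensitized group 1 mouse stands far from the other 2.

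The 10 genes largely went up and down together from mouse to mouse, also within groups. Their summed level was 85.2, 84.9 and 307 CPM in the sensitized mice at 0 min, 294, 47.5 and 213 CPM at 30 min, 76.3, 53.9 and 186 CPM at 60 min, 81.2, 56.9 and 30.1 CPM at 120 min, and 205, 230 and 185 CPM in the PBS mice. These sums fell into 2 ranges with none in between, 30.1 to 85.2 CPM in 8 libraries and 185 to 307 CPM in 7 libraries. The 120 min group lay wholly in the lower range and the PBS group wholly in the higher one, whereas each of the other 3 groups had mice in both. The gap is found in CPM and not in TPM, where the sums of replicate 3 of the 60 min group, 76.0, and replicate 1 of the PBS group, 99.3, lay between those of the other libraries, at most 61.4 or at least 139.7. Single mice set this for all genes at once: replicate 3 of the sensitized group was the highest of its group for 10 of the 10 genes, and replicate 2 of the 30 min group was the lowest of its group for 10 of 10. Likewise replicate 2 of the 60 min group was the lowest for 10 of 10, and replicate 1 of the 120 min group was the highest for 10 of 10. The summed level was 159 ± 128 CPM in the sensitized mice at 0 min, against 207 ± 22.5 CPM in the PBS mice, which were the closest to each other of all groups (mean ± SD, n = 3 each).

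No correlation among the 10 genes is given, since one over all 15 libraries would rest on the gap in CPM and one within each range would be taken in libraries chosen by the same sums. The genes did not all follow the sum: replicate 3 of the 60 min group, with 48.2 CPM of Ptprc, had 3.13 CPM of Cd69, below the median of 3.85 CPM over the 15 libraries. Replicate 3 of the 30 min group, with 57.9 CPM of Ptprc, had 2.45 CPM of Trdc, below its median of 2.53 CPM.

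**Figure D2:**
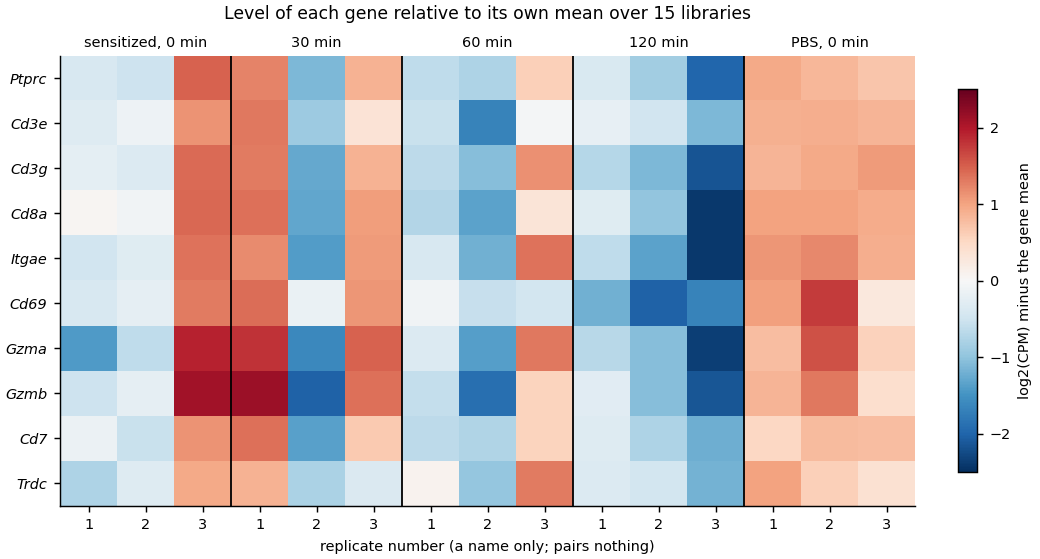
Each gene's log2(CPM) minus its own mean over the 15 libraries, with libraries in columns by group and genes in rows. Columns are mostly of a single colour, with exceptions such as Cd69 in replicate 3 of the 60 min group and Trdc in replicate 3 of the 30 min group, and replicate 3 of the 120 min group was the lowest or next to lowest of 15 for each gene.

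Cd69, the activation and residency antigen, was the only one of the 10 genes with a difference past the threshold, an adjusted p of 0.05. It lies at chr6:129267325-129275436 on the minus strand of GRCm38. Cd69 was at 3.28, 3.72 and 10.6 CPM in sensitized mice at 0 min, 11.3, 3.85 and 9.29 CPM at 30 min, 4.08, 2.90 and 3.13 CPM at 60 min, 1.88, 1.07 and 1.35 CPM at 120 min, and 8.75, 14.5 and 5.21 CPM in PBS mice. In CPM all 3 mice at 120 min lay below each of the other 12 mice. In TPM this did not hold, since replicate 3 of the 60 min group was at 1.11 TPM and replicate 1 of the 120 min group at 1.44 TPM. Cd69 fell to 1.43 ± 0.415 CPM at 120 min, against 8.15 ± 3.86 CPM at 30 min (mean ± SD, n = 3 each). The log2 fold change was −2.50 ± 0.52 (SE), with an adjusted p of 0.042 in edgeR's quasi-likelihood test with Benjamini-Hochberg adjustment over 14968 genes. In that comparison 0.414% of all genes were lower past the threshold, and 1 of the 10 lymphocyte genes was.

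Whether Cd69 passed the threshold depended on single mice. With edgeR its adjusted p was 0.148 without replicate 1 of the 30 min group, 0.0800 without replicate 3 of that group, 0.140, 0.0946 and 0.111 without replicates 1, 2 and 3 of the 120 min group, and 0.0369 without replicate 2 of the 30 min group. The fold change was negative in all 6, from −2.85 to −2.21, with an unadjusted edgeR p of 4.39e-05 to 0.00203. Over all genes, edgeR calls in this comparison also fell when a mouse was left out, from 151 to between 4 and 67. The adjusted p was 0.00016 by DESeq2 and 0.0427 by edgeR with RLE scaling. It was 0.0949 by limma-voom, and by edgeR 0.0634 with no low count filter and 0.0801 with only the 2 groups in the fit.

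Against the unchallenged sensitized mice, Cd69 at 120 min had a log2 fold change of −2.01 ± 0.52, which missed the threshold (edgeR adjusted p = 0.0683, unadjusted p = 0.0015; DESeq2 adjusted p = 0.00371). Without replicate 3 of the sensitized group, the value was −1.28 (edgeR adjusted p = 0.31). With the PBS mice as the control in their place, it was −2.71 (edgeR adjusted p = 0.0293). Cd69 at 120 min was also below all 3 mice at 60 min in CPM, with −1.23 ± 0.52 (edgeR adjusted p = 0.208), and it was the only gene of the 10 whose neighbouring group means in CPM, at 60 and 120 min, differed by more than either SD without overlap. In TPM these groups overlapped, and it was Cd8a, at 0 and 60 min, whose neighbouring means did so. At 60 min Cd69 was at 3.37 ± 0.623 CPM and at 30 min at 8.15 ± 3.86 CPM, a log2 fold change of −1.28 ± 0.49 (edgeR adjusted p = 0.863). The joint test of any difference among the 5 groups gave Cd69 an edgeR adjusted p of 0.0894 and a DESeq2 adjusted p of 0.00011, and 0.347% of all genes passed it by edgeR.

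Itgae encodes CD103, the α chain of the integrin that binds E-cadherin, and lies at chr11:73090583-73147446 on the plus strand. It was at 8.97, 10.2 and 32.1 CPM in sensitized mice at 0 min, 28.6, 4.80 and 26.3 CPM at 30 min, 9.51, 5.48 and 32.0 CPM at 60 min, 8.05, 4.96 and 2.34 CPM at 120 min, and 26.8, 28.9 and 23.7 CPM in PBS mice. The mice at 120 min lay below all sensitized mice at 0 min, but they overlapped the groups at 30 and 60 min. The log2 fold change at 120 min against 0 min was −1.73 ± 0.82 (edgeR adjusted p = 0.303). Cdh1, which encodes E-cadherin, its ligand on epithelial cells, was at 1128 ± 151 CPM at 120 min and 1001 ± 66.6 CPM at 0 min (mean ± SD, n = 3 each), with a log2 fold change of 0.17 ± 0.13 (edgeR adjusted p = 0.536).

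Cd3e and Cd3g encode signalling chains that every T cell receptor needs at the surface, and their genes lie close together on chromosome 9, at chr9:44998740-45009627 and chr9:44969572-44980431, both on the minus strand. The 250 bases before each RefSeq start (GRCm38.p6) are shown because the pair belongs to a single receptor complex, with capitals for matches to the motifs AGGAAG (ETS factors), AGGTGT (T-box factors), CAGNTG (E-box), TGTGGT (RUNX factors) or TGANTCA (AP-1), searched on both strands.
Cd3e, chr9:45009612-45009861, minus strand: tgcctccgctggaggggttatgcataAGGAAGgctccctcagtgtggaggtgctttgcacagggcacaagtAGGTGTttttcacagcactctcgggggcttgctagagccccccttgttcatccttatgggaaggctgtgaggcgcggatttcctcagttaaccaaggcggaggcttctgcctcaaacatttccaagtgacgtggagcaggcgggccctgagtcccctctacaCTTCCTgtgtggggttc
Cd3g, chr9:44980432-44980681, minus strand: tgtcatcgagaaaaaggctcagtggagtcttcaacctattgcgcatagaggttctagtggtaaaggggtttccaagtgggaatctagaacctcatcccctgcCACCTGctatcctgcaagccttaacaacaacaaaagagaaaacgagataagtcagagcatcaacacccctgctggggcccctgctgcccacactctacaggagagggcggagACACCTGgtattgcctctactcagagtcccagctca
Both windows hold AGGTGT, which 11.8% of 32851 RefSeq promoter windows of this length hold. In Cd3g that match overlaps an E-box by 5 bases, and E-box letters are common, in 44.8% of all windows. Such matches describe the letters only.

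Cd3g was at 5.89, 5.49 and 18.8 CPM in sensitized mice at 0 min, 17.1, 2.90 and 12.7 CPM at 30 min, 4.46, 3.33 and 15.5 CPM at 60 min, 4.28, 3.20 and 1.58 CPM at 120 min, and 12.6, 13.6 and 14.7 CPM in PBS mice. The 120 min mice were below all mice at 0 min and all PBS mice. The log2 fold change against 0 min was −1.73 ± 0.75 (edgeR adjusted p = 0.253). Cd3e was at 4.56, 5.22 and 12.4 CPM in sensitized mice at 0 min, 14.2, 3.03 and 7.14 CPM at 30 min, 3.86, 1.77 and 5.46 CPM at 60 min, 4.94, 4.05 and 2.61 CPM at 120 min, and 10.5, 10.6 and 10.3 CPM in PBS mice. The PBS mice differed least from each other, and the 120 min and 0 min mice overlapped (−0.92 ± 0.53, edgeR adjusted p = 0.382). Cd3e was the only gene of the 10 whose lowest group mean was at 60 min, 3.70 ± 1.85 CPM (SD, n = 3), closer to the 120 min mean than either SD.

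Cd8a encodes the chain found in both forms of the CD8 coreceptor, the αα form typical of many intraepithelial lymphocytes and the αβ form, and lies at chr6:71373427-71379173 on the plus strand. It was at 13.5, 12.2 and 35.2 CPM in sensitized mice at 0 min, 33.8, 5.24 and 26.8 CPM at 30 min, 7.83, 5.10 and 16.1 CPM at 60 min, 10.5, 6.56 and 2.43 CPM at 120 min, and 26.1, 26.0 and 24.6 CPM in PBS mice. The 120 min mice lay below those at 0 min, with a log2 fold change of −1.64 ± 0.71 (edgeR adjusted p = 0.258). Per length, Cd8a exceeded Cd8b1, which encodes the β chain, in all 15 libraries, by a ratio of 1.82 to 4.95, and exceeded Cd4, the coreceptor of helper T cells, by 2.26 to 13.2.

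Trdc encodes the constant region of the δ chain and marks γδ T cells. It lies at chr14:54142851-54148868 on the plus strand. It was at 1.85, 2.53 and 6.07 CPM in sensitized mice at 0 min, 5.74, 1.83 and 2.45 CPM at 30 min, 3.37, 1.61 and 7.79 CPM at 60 min, 2.495, 2.29 and 1.40 CPM at 120 min, and 6.36, 4.76 and 4.13 CPM in PBS mice. It had the narrowest range of the 10 genes, 5.58-fold between the highest and lowest library, and the smallest fold change at 120 min against 0 min, −0.74 ± 0.58 (edgeR adjusted p = 0.536). At 60 min Trdc had a log2 fold change of 0.29 ± 0.57 against 0 min (edgeR adjusted p = 0.874), the only positive one of the 10. The ratio of Trdc to Trac, the constant region of the α chain, in TPM was 0.0490, 0.185 and 0.105 in the sensitized mice at 0 min, 0.127, 0.117 and 0.0344 in the 30 min mice, 0.405, 0.205 and 0.191 in the 60 min mice, 0.248, 0.220 and 0.243 in the 120 min mice, and 0.206, 0.0966 and 0.0793 in the PBS mice. The 60 and 120 min mice lay above all sensitized mice at 0 and 30 min in this ratio, which was not tested and rests on low counts of both genes. They did not all lie above the PBS mice: replicate 1 of the PBS group was above replicates 2 and 3 of the 60 min group.

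Gzma and Gzmb encode granzymes A and B, the serine proteases of cytotoxic granules, and had the widest ranges of the 10 genes, 19.4-fold and 19.3-fold between the highest and the lowest library. Their promoter windows are shown because these genes varied most, with capitals as above.
Gzma, chr13:113100982-113101231, minus strand: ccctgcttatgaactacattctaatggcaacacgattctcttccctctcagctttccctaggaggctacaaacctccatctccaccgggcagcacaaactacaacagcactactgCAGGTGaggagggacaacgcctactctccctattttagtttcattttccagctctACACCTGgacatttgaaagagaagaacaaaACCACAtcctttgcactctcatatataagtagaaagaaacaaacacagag
Gzmb, chr14:56262335-56262584, minus strand: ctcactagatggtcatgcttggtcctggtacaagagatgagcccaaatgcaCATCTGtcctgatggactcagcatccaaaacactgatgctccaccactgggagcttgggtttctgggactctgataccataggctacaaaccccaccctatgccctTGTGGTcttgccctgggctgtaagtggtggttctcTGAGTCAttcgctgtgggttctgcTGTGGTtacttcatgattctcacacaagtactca
Both granzyme windows hold the RUNX letters TGTGGT or their reverse complement, once in Gzma and 2 times in Gzmb, and the windows of Ptprc, Cd3e, Cd3g and Cd8a hold none. Of all windows of this length, 14% hold them. Gzmb also holds the AP-1 letters, found in 6.75% of all windows. In Gzma the T-box and an E-box match overlap. The annotation used for counting places Gzma at chr13:113093825-113100981 and Gzmb at chr14:56258838-56262260, and RefSeq starts Gzmb farther upstream. No promoter was matched for Itgae, Cd69, Cd7 and Trdc.

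Gzma was at 3.54, 6.09 and 35.8 CPM in sensitized mice at 0 min, 33.1, 3.09 and 26.3 CPM at 30 min, 7.50, 3.65 and 23.7 CPM at 60 min, 5.89, 4.53 and 1.85 CPM at 120 min, and 16.2, 28.4 and 14.1 CPM in PBS mice. Gzmb was at 5.38, 6.62 and 33.0 CPM in sensitized mice at 0 min, 34.0, 1.89 and 20.02 CPM at 30 min, 5.11, 2.10 and 11.4 CPM at 60 min, 6.36, 3.68 and 1.76 CPM at 120 min, and 14.0, 19.3 and 10.3 CPM in PBS mice. For both genes the highest group mean was at 30 min, at 20.8 ± 15.7 CPM for Gzma and 18.6 ± 16.1 CPM for Gzmb (SD, n = 3). At 120 min against 0 min the log2 fold change was −1.88 ± 1.06 for Gzma and −1.92 ± 1.01 for Gzmb (edgeR adjusted p = 0.391 and 0.354), with overlap between the groups. Their SEs were the largest of the 10 genes. The ratio of Gzma to Gzmb in TPM was above 1 in all 15 libraries, at 1.34 to 4.45.

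Ptprc encodes CD45, the phosphatase found on all white blood cells, and lies at chr1:138062861-138175708 on the minus strand. It was at 24.1, 22.3 and 89.1 CPM in sensitized mice at 0 min, 75.3, 14.7 and 57.9 CPM at 30 min, 20.6, 18.7 and 48.2 CPM at 60 min, 24.3, 17.4 and 8.11 CPM at 120 min, and 61.5, 57.0 and 51.3 CPM in PBS mice. The mice at 120 min and at 0 min overlapped, with a log2 fold change of −1.44 ± 0.70 (edgeR adjusted p = 0.318). Cd7, an immunoglobulin-like receptor of T and natural killer cells at chr11:121036747-121039418 on the minus strand, was at 14.1, 10.6 and 34.0 CPM in sensitized mice at 0 min, 40.6, 6.12 and 24.5 CPM at 30 min, 9.998, 9.24 and 23.04 CPM at 60 min, 12.4, 9.17 and 6.71 CPM at 120 min, and 22.5, 27.0 and 26.8 CPM in PBS mice. Its log2 fold change at 120 min against 0 min was −1.05 ± 0.62 (edgeR adjusted p = 0.413).

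Read as a group, the 10 genes were lowest 120 min after challenge. The group mean was lowest at 120 min for 9 of 10 genes, and highest in PBS mice for 8 and at 30 min for 2, Gzma and Gzmb. At 120 min against the unchallenged sensitized mice, 10 of 10 log2 fold changes were negative, as were 50.7% of all genes, and the median was −1.68 against −0.01 over all genes tested. In that comparison 0 of the 10 passed the edgeR threshold, which 0.528% of all genes passed in the lower direction. At an unadjusted p under 0.05, 3 of 10 were lower, Cd3g, Cd8a and Cd69, against 8.91% of all genes, and DESeq2 passed Cd69 alone. In 4 of 10 genes, Cd3g, Cd8a, Itgae and Cd69, the 3 challenged mice lay below the 3 control mice without overlap, as in 13.3% of all genes. The size rests on a single control mouse: without replicate 3 of the sensitized group the median was −0.54, with 10 of 10 still negative and 1 of 10 at an unadjusted p under 0.05.

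**Figure D3:**
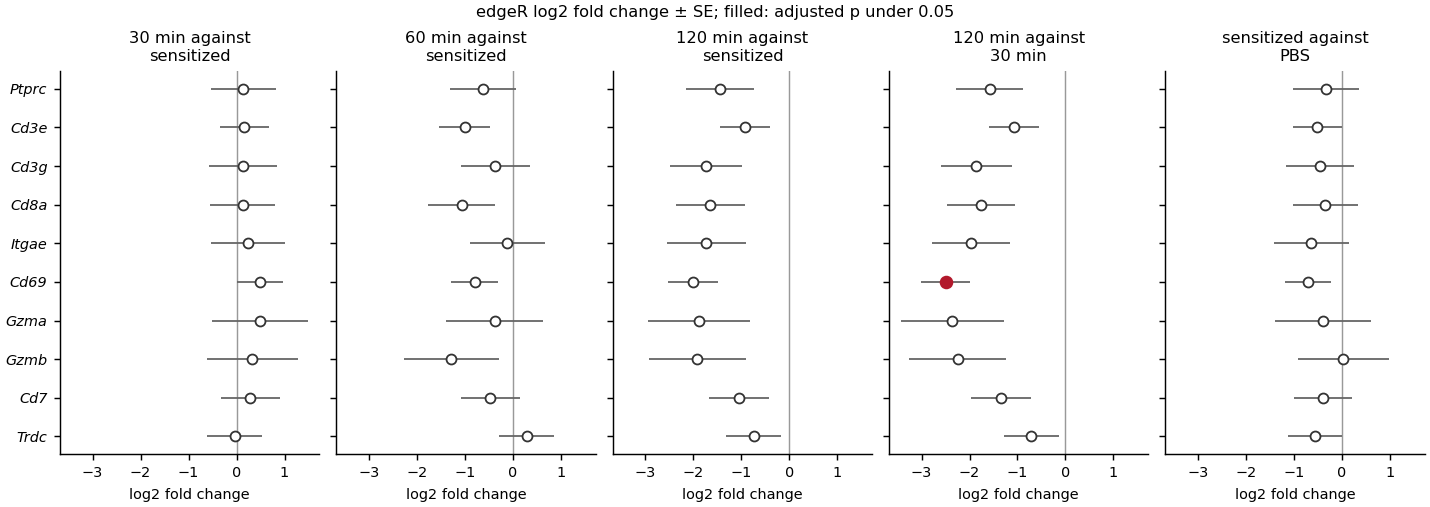
edgeR log2 fold change ± SE of each gene in 5 comparisons, with a filled point where the adjusted p was under 0.05. All 10 points are below 0 at 120 min against sensitized and against 30 min, and the single filled point is Cd69 at 120 min against 30 min, −2.50.

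Between the late and the early time after challenge, 120 against 30 min, 10 of 10 fold changes were negative, against 51.2% of all genes, with a median of −1.81, and 7 of 10 had an unadjusted p under 0.05, against 9.39% of all genes in the lower direction. In 1 of 10 genes, Cd69, the groups did not overlap, as in 10.1% of all genes. The count of 7 was 1 without replicate 1 or replicate 3 of the 30 min group, or without replicate 2 or 3 of the 120 min group, and 9 without replicate 2 of the 30 min group. At 120 against 60 min the median was −0.92 with 9 of 10 negative, against 50.5% of all genes. Without replicate 3 of the 60 min group it was −0.28. In that comparison 0 of 10 passed by edgeR or DESeq2, against 0.534% of all genes lower by edgeR, and at an unadjusted p under 0.05 Cd69 alone was lower, against 9.37% of all genes. Cd69 was also the 1 gene of 10 without overlap there, as were 9.78% of all genes.

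Against the unchallenged sensitized mice, the earlier times showed no steady direction. Against the PBS mice the median was −0.91 at 60 min, with 10 of 10 negative, and −0.21 at 30 min, with 8 of 10 negative. The share of all genes below 0 was not taken there. At 60 min 4 of 10, Ptprc, Cd3e, Cd8a and Cd69, lay below the PBS mice without overlap, as did 7.42% of all genes. At 30 min 0 of 10 did, against 3.53%. By edgeR 0 of 10 passed at either time, and 0 of all genes did. Sensitization and challenge are joined in both. At 60 min against the unchallenged sensitized mice the median was −0.55 with 9 of 10 negative, against 52.3% of all genes, but without replicate 3 of the sensitized group it was 0.25 with 3 of 10 negative. Other mice moved it too: it was −1.26 without replicate 3, −0.33 without replicate 1 and −0.29 without replicate 2 of the 60 min group, and −0.87 and −0.84 without replicates 1 and 2 of the sensitized group. Of the 10 genes, 0 passed by edgeR, 0 by DESeq2 and 0 at an unadjusted p under 0.05. Of all genes, 0.00668%, or 1 gene, passed in the lower direction by edgeR, and 12.6% had an unadjusted p under 0.05. At 30 min the median was 0.20 with 9 of 10 positive, against 51.2% of all genes, and it turned to −0.32 without replicate 1 of the 30 min group, and to −0.07 or −0.03 without replicate 1 or 2 of the sensitized group. It was 1.0 without replicate 3 of the sensitized group and 0.65 without replicate 2 of the 30 min group. There, too, 0 of 10 passed by edgeR or DESeq2 and 0 at an unadjusted p under 0.05. Of all genes 0% passed by edgeR and 5.04% had an unadjusted p under 0.05. The comparisons at 30, 60 and 120 min share the same 3 control mice, so they are not independent of each other. At 60 against 30 min the median was −0.81 with 9 of 10 negative, against 52.9% of all genes. There 0 of 10 passed by edgeR or DESeq2 and 0% of all genes by edgeR, and 2 of 10, Cd3e and Cd69, were lower at an unadjusted p under 0.05, against 2.18% of all genes lower and 4.46% in either direction. That median ran from −1.46 without replicate 3 of the 60 min group, and −1.27 without replicate 2 of the 30 min group, to −0.52 without replicate 2 of the 60 min group and −0.33 without replicate 1 of the 30 min group.

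Sensitization alone left no difference past the threshold. The median in unchallenged sensitized mice against PBS mice was −0.42 with 9 of 10 negative, against 48.4% of all genes. Of the 10 genes, 0 passed by edgeR or DESeq2 and 0 had an unadjusted p under 0.05. Of all genes, 0% passed by edgeR and 1.42% had an unadjusted p under 0.05. Without replicate 3 of the sensitized group the median was −1.27, and without replicate 1 or 2 it was −0.19 or −0.12. Set against the PBS mice, the 120 min group lay lower without overlap for 10 of 10 genes, as did 13.9% of all genes. The median log2 fold change was −1.94 with 10 of 10 negative, against 49.6% of all genes. In that comparison 8 of 10 were lower at an unadjusted p under 0.05, against 9.95% of all genes, and 1 of 10, Cd69, passed the edgeR threshold, against 0.448%. It joins sensitization and challenge in a single difference.

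Ratios to Ptprc show how the other genes stood per unit of white blood cell RNA in the same library. For Cd69 the ratio in TPM was 0.330, 0.446 and 0.231 in the sensitized mice at 0 min, 0.313, 0.530 and 0.370 in the 30 min mice, 0.357, 0.416 and 0.100 in the 60 min mice, 0.170, 0.108 and 0.226 in the 120 min mice, and 0.335, 0.571 and 0.240 in the PBS mice. In TPM the 120 min values were below all of those at 0 min, by a small margin for the nearest mice. They were also below all of those at 30 min and in PBS mice. Replicate 3 of the 60 min group had the lowest TPM ratio of all. In CPM the separation of the 120 min mice did not hold. There, replicate 3 of the 120 min group had 1.35 CPM of Cd69 and 8.11 CPM of Ptprc. Replicate 3 of the sensitized group had 10.6 CPM of Cd69 and 89.1 CPM of Ptprc. Itgae per Ptprc was 0.265, 0.145 and 0.157 at 120 min, against 0.282, 0.443 and 0.276 at 0 min, again without overlap, but it overlapped the 30 min mice, at 0.289, 0.240 and 0.401, and the 60 min mice, at 0.325, 0.214 and 0.386. Cd3g per Ptprc was 0.599, 0.401 and 0.474 at 120 min, against 0.825, 1.06 and 0.701 at 0 min, and overlapped the lowest 60 min mouse, at 0.585. Cd8a per Ptprc at 120 min overlapped the mice at 0 min. Cd7 and Trdc per Ptprc also overlapped between 120 min and 0 min: their means were 1.96 and 0.0908 at 120 min, against 2.06 and 0.0819 at 0 min. Over the 15 libraries Cd7 per Ptprc varied 1.83-fold, but Trdc per Ptprc varied 3.09-fold, more than Cd3g per Ptprc at 2.86-fold. These ratios were not tested.

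**Figure D4:**
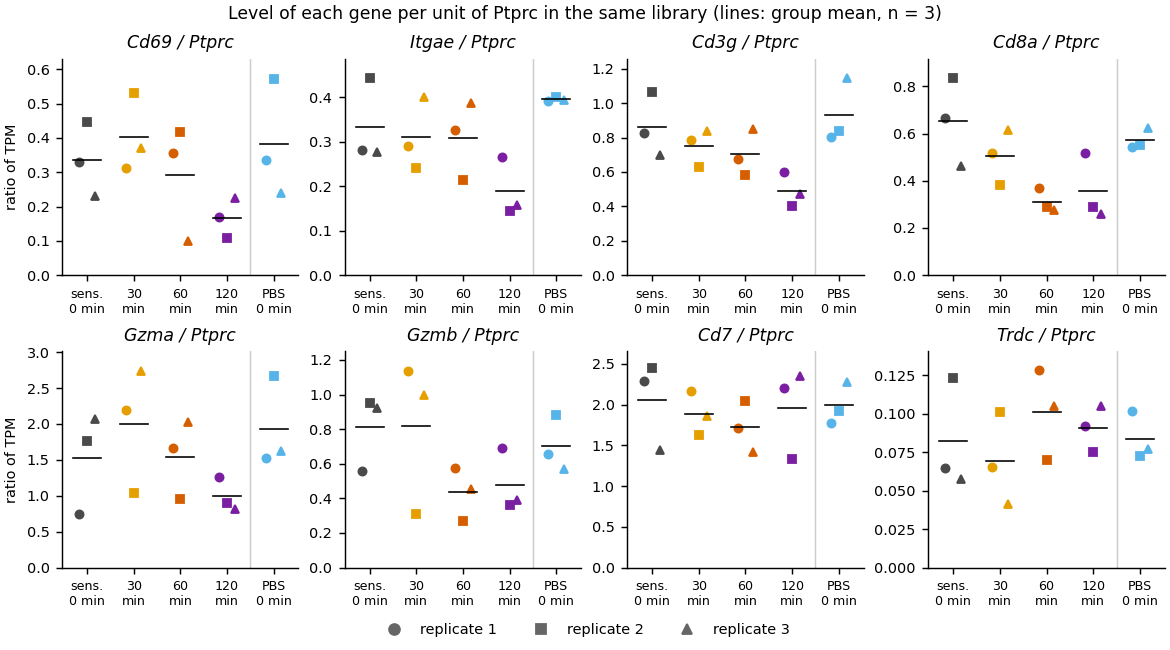
Ratio of each gene's TPM to that of Ptprc in the same library, by group, with lines at the group means of 3. Cd69, Itgae and Cd3g are lower at 120 min than in all sensitized mice at 0 min, while Cd7 and Trdc overlap between these groups. For Cd69 the separation does not hold in CPM.

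The genes whose log2 CPM followed the mean of the 10 most closely over the 15 libraries were Itpkb, Ctsw, Ets1, P2ry10, Fli1, Myo1g, Rasgrp1, Dock10, Dennd4a and Rassf2, with Pearson r of 0.97 to 0.98 among 12878 genes ranked. Ctsw, a protease of cytotoxic lymphocytes, was at 3.11, 2.13 and 1.62 CPM at 120 min, against 2.92, 4.42 and 10.2 CPM in sensitized mice at 0 min. Ets1, a transcription factor of lymphocytes, was at 21.2, 17.2 and 11.9 CPM at 120 min, against 20.5, 19.0 and 57.0 CPM at 0 min. Both show the same high mouse, replicate 3 of the sensitized group. Lck, the kinase that starts signalling from the T cell receptor, ranked 11, and Itgb7, the partner chain of CD103, ranked 14. These likenesses describe 15 libraries that share the gap in CPM given above.

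Other lists of T cell genes had the same direction at 120 min against 0 min, and 0 of their genes passed the threshold by edgeR. In that comparison 50.7% of all genes were negative and 8.91% were lower at an unadjusted p under 0.05. Of 14 tested genes of the receptor complex and its signalling, 14 had a negative log2 fold change, with a median of −1.36, and 6 had an unadjusted p under 0.05. The receptor chains and coreceptors had 8 of 8 negative and a median of −1.34, and 2 of 8 had an unadjusted p under 0.05. Trac was at 2.12, 1.44 and 1.17 CPM at 120 min, against 3.23, 2.85 and 6.57 CPM at 0 min (−1.41 ± 0.54, edgeR adjusted p = 0.196). Of the cytotoxic granule and cytokine genes 13 of 13 were negative with a median of −1.46, 5 of them at an unadjusted p under 0.05. Ccl5, a chemokine released by activated killer cells, was at 9.70, 8.59 and 2.70 CPM at 120 min, against 5.69, 12.5 and 46.7 CPM at 0 min, with overlap (−1.62 ± 0.88, edgeR adjusted p = 0.369). Srgn, the core protein of granules, was at 8.57, 5.97 and 2.93 CPM at 120 min, against 11.5, 9.53 and 32.9 CPM at 0 min (−1.62 ± 0.66, edgeR adjusted p = 0.23). Receptors of natural killer type had 9 of 10 negative and a median of −1.21, with 3 of 10 at an unadjusted p under 0.05. Cd160, a receptor of intraepithelial lymphocytes, was at 1.70, 1.23 and 0.631 CPM at 120 min, against 1.44, 2.91 and 9.04 CPM at 0 min (−1.90 ± 0.64, edgeR adjusted p = 0.149). The closest to the threshold among them was Cd244a, a receptor of cytotoxic cells, at 120 against 30 min, with 1.88, 0.480 and 1.04 CPM at 120 min and 6.46, 2.78 and 4.49 CPM at 30 min (−2.01 ± 0.47, edgeR adjusted p = 0.0514). Cytokine receptors had 8 of 8 negative with a median of −1.10, and residency and homing genes 12 of 14 with a median of −0.80. Among the cytokine receptors, Il21r was at 6.45, 6.72 and 1.44 CPM at 120 min, against 10.4, 8.73 and 27.8 CPM at 0 min, without overlap (−1.68 ± 0.74, edgeR adjusted p = 0.262). Lymphocyte transcription factors had 12 of 13 negative with a median of −0.63, and the 6 tested genes of regulatory and helper T cells had 5 negative with a median of −1.34. Not every gene of these lists is read from lymphocytes alone, since epithelial cells also express some of them: Ahr, the aryl hydrocarbon receptor, was at 24.0, 22.7 and 23.8 CPM at 120 min, against 25.1, 20.8 and 27.6 CPM at 0 min, a spread far narrower than that of the 10 genes.

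Among 14 genes listed as epithelial partners of these cells, 8 were negative and 6 positive at 120 min against 0 min, with a median of −0.24. Of all genes, 50.7% were negative. By edgeR 0 of 14 passed, against 0.528% of all genes in the lower direction. An unadjusted p under 0.05 was found for 2 of 14, both lower, against 8.91% of all genes in that direction. A difference between this list and the lymphocyte genes was not tested. Ccl25, the chemokine that draws lymphocytes to the small intestine, had a log2 fold change of 0.14 ± 0.13, and Btnl1, a butyrophilin-like protein that γδ cells recognise, −0.18 ± 0.19 (edgeR adjusted p = 0.622 and 0.662). Of the 8 epithelial markers, 1 was negative, against 50.7% of all genes, and their median was 0.14. Krt20, a keratin of mature enterocytes, rose to 711 ± 101 CPM at 120 min, against 444 ± 48.6 CPM at 60 min (mean ± SD, n = 3 each), by 0.68 ± 0.15 on the log2 scale (edgeR adjusted p = 0.0404), the only gene of these lists past the threshold. In that comparison edgeR called 168 of 14968 genes in either direction. It called 0 genes, and so not Krt20, with only those 2 groups in the fit. The same held without replicate 1 or without replicate 3 of the 120 min group.

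Markers of other white blood cells also differed between mice, and their part in the results was not tested. Counts in the lists that follow are for 120 min against 0 min, where 50.7% of all genes were negative and 8.91% were lower at an unadjusted p under 0.05. The 9 matched B cell genes summed to 7.58, 11.8 and 4.82 CPM at 120 min, against 7.996, 4.96 and 75.2 CPM in sensitized mice at 0 min, where the high mouse was again replicate 3. The median of their log2 fold changes was −1.82, with 0 of 9 at an unadjusted p under 0.05. The 7 plasma cell genes summed to 474, 432 and 139 CPM at 120 min, against 1090, 1077 and 1640 CPM at 0 min. Here the groups did not overlap, 7 of 7 had a negative fold change and an unadjusted p under 0.05, the median was −1.90, and 0 passed by edgeR. Igha, the constant region of IgA, was at 302, 249 and 80.6 CPM at 120 min, against 680, 659 and 886 CPM at 0 min (−1.82 ± 0.58, edgeR adjusted p = 0.143). The 12 macrophage and dendritic cell genes summed to 64.6, 75.2 and 57.6 CPM at 120 min, against 73.0, 51.9 and 67.3 CPM at 0 min, with 6 of 12 negative. Of the mast cell genes 3 could be tested and 3 were negative, with a median of −1.59, and Mcpt1, a protease of mucosal mast cells, was at 3.25, 2.13 and 1.22 CPM at 120 min, against 1.90, 15.0 and 7.56 CPM at 0 min (−1.89 ± 0.75, edgeR adjusted p = 0.218). Of 5 erythroid genes 5 were negative, and their sum was 85.2, 87.3 and 77.5 CPM at 120 min, against 125, 152 and 179 CPM at 0 min. The 8 stromal and endothelial genes summed to 189 CPM in replicate 1 of the 30 min group and to 6.19 to 21.97 CPM in each of the other 14 libraries. That mouse was also the highest of the 30 min group for each of the 10 lymphocyte genes.

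**Figure D5:**
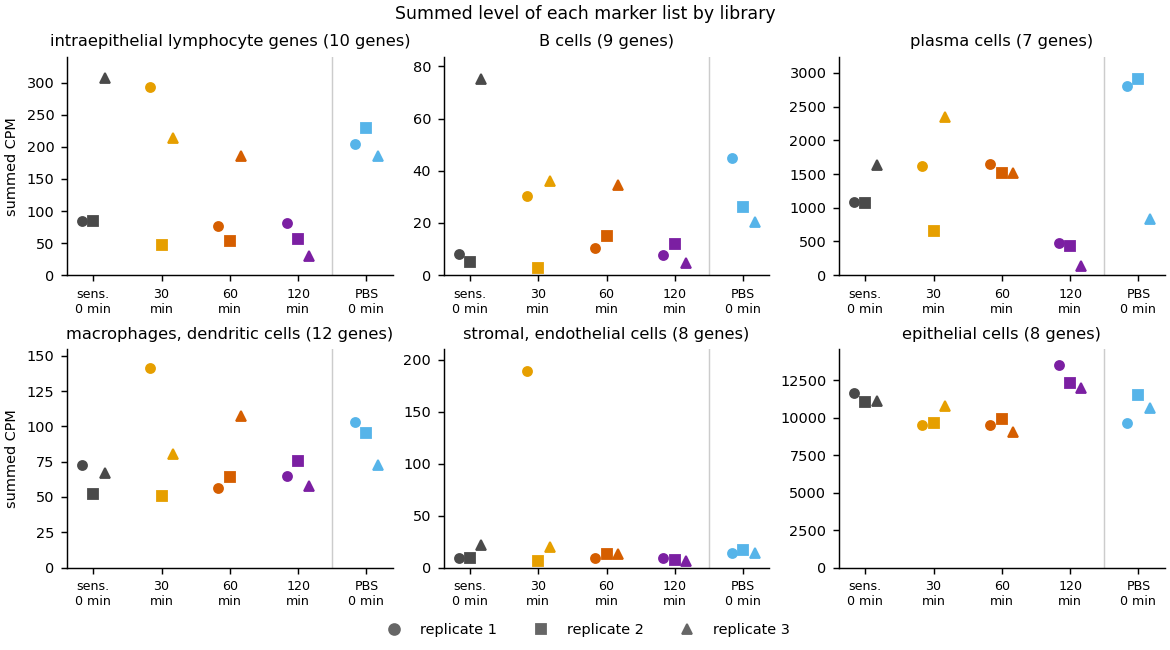
Summed CPM of the intraepithelial lymphocyte genes and of 5 marker lists, by library and group. Sensitized replicate 3 is high for lymphocyte and B cell genes, 30 min replicate 1 is high for stromal genes at 189 CPM, and plasma cell genes are lower in each 120 min mouse than in each sensitized mouse at 0 min.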

How the data were processed

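RNA of 15 jejunal epithelial isolates was read as pairs of 151 bp. The submitters' processing notes name cutadapt 1.18, Salmon 1.2.1 and the build mm10. Per the file headers, the deposited tables give the authors' estimated count of reads and the TPM for each of 139058 transcripts. Which annotation release they used was not given in the sources used here.

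Transcripts were summed to 52844 genes with GENCODE M21 (GRCm38), and 1115 transcript IDs matched no gene. Sums were rounded and tested with edgeR 4.0.16 (quasi-likelihood, robust, TMM, filterByExpr), with all 15 libraries and a mean for each of the 5 groups in 1 fit, 7 pairwise contrasts and a joint test, Benjamini-Hochberg adjustment and a threshold of 0.05. Alternatives were DESeq2 1.42.0 and limma-voom 3.58.1, RLE scaling, no low count filter, the 2 compared groups alone, PBS mice as the control, and leaving out each library. The deposited TPM values were summed per gene and not tested. The fit was tested on simulated data in which all genes had the same spread and only genes above a set mean count were changed. It therefore does not show how the fit performs on genes that vary as much between mice as the lymphocyte genes.

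The 10 genes and all lists were chosen with earlier results of these data known. Genes of other lists are named if past the threshold or among the 3 with the highest mean level of their list, and the 10 most alike genes by Pearson r of log2 CPM to the mean of the 10; Itgb7, S100a8 and the genes used as denominators of ratios other than Ptprc fall outside that rule, and Itgb7 and S100a8 were chosen after their values were seen. Correlations among the genes were planned over all 15 libraries and are not reported, since the libraries formed 2 clusters by the same sums. Promoter windows are from RefSeq (GRCm38.p6), which matched 6 of the 10 genes.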

Additional observations from a re-analysis of the deposited data

Results flagged for a closer look

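Cd69 at 120 min against 30 min had a log2 fold change of −2.50 (edgeR adjusted p = 0.042), which tests whether its difference from the shared sensitized controls was the same at both times. Its difference from the sensitized mice at 0 min was −2.01 ± 0.52 at 120 min and 0.49 ± 0.48 at 30 min. All 3 mice at 120 min were below all 3 mice at 30 min. The summed level of the plasma cell genes was 474, 432 and 139 CPM at 120 min, against 1616, 658 and 2350 CPM at 30 min, also without overlap, and its part in the Cd69 difference was not tested.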

How the results depend on the processing

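No paired analysis was possible because the labels give the groups no shared replicate numbers. The counts of genes past the threshold depended on the tool and the samples. For sensitized against PBS, 30, 60 and 120 min against sensitized, 60 against 30 min, 120 against 30 min, 120 against 60 min and the joint test, edgeR called 0, 0, 1, 188, 0, 151, 168 and 52 genes, and DESeq2 called 6, 6, 184, 748, 5, 789, 882 and 1009. In the comparisons with 0 by edgeR, 212, 755 and 667 genes had an unadjusted p under 0.05. With no low count filter, 49 genes were called at 60 min against sensitized, 279 at 120 against 60 min and 380 in the joint test, and limma-voom called 34 in the joint test. With only the 2 groups in the fit, 0 were called at 60 min against sensitized, 4 at 120 against 30 min and 0 at 120 against 60 min. With PBS mice as the control, 0 were called at 60 min. Leaving out each library in turn gave 0 to 0, 0 to 1, 0 to 385, 7 to 240, 0 to 1, 4 to 67, 0 to 1151 and 0 to 180 genes in the same order. The cause was not tested. The number of lymphocyte genes with the lowest group mean at 120 min was 9 in CPM and in TPM. In TPM the gap between the libraries' sums was lost, at 76.0 in replicate 3 of the 60 min group and 99.3 in replicate 1 of the PBS group, with 33.2% and 25.5% of mitochondrial counts. Replicate 3 of the sensitized group, with 26.7% of mitochondrial counts, had a sum of 161.7 TPM. The part of mitochondrial counts in these sums was not tested. Over all alternatives, the sign of a lymphocyte gene's fold change differed from that reported in 0 of 120 values at 120 min against sensitized, 0 of 110 at 120 against 30 min, 3 of 110 at 120 against 60 min, 12 of 120 at 60 min, 33 of 120 at 30 min, 3 of 110 at 60 against 30 min and 4 of 110 for sensitized against PBS.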

Other observations

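Among the epithelial partner genes, the butyrophilin-like genes Btnl6 and Btnl4, picked out after their values were seen, differed between mice of the same group, and whether they also differed by group was not tested. Btnl6 was at 17.5 to 31.9 CPM in 4 libraries, replicates 1 and 3 of the 30 min group, replicate 1 of the sensitized group and replicate 3 of the PBS group, and at 58.0 to 130 CPM in the other 11. Btnl4 was at 119 to 171 CPM in those 4 libraries and at 50.6 to 133 CPM in the other 11. Reads of these related genes may be shared between them in the quantification, so each level is uncertain.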
